A study of Mus musculus with 6 samples.

Results

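Actin genes that move and anchor the meiotic spindle of the mouse oocyte were followed here in XY and XX oocytes. The genes were listed by name, with earlier results of these data known: Fmn2, Spire1, Spire2, Myo5b, Actr2, Actr3, Arpc2, Cdc42, Rac1 and Wasl. The rule that picks their probe sets uses no measured value. A probe set, the group of short probes whose combined brightness stands for a transcript, counted when the platform annotation gave it 1 of these symbols alone. This found 28 probe sets of 9 of the 10 genes, out of 34945 probe sets with 1 symbol, and Actr2 was matched to none and was not analysed here. All 9 genes passed the filter on dim probe sets, through 23 of the 28, and so stood among the 12442 genes tested. In the GRCm38.p6 RefSeq table Fmn2, Actr3 and Arpc2 lie on chromosome 1, Cdc42 on 4, Rac1 on 5, Wasl on 6, Spire2 on 8 and Spire1 and Myo5b on 18.

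The oocytes came from B6.Y(TIR) XY females, XY animals that form ovaries because their Y chromosome, from Tirano mice, was placed on C57BL/6, and from their XX littermates. Females of both groups were 25 to 29 days old and had received 5 IU of equine chorionic gonadotropin 45 to 47 hours earlier. Each of the 6 arrays, 3 XX and 3 XY, carried the labelled RNA of 10 fully grown oocytes at the germinal vesicle (GV) stage, stripped of cumulus cells by pipetting. The comparison asked which transcripts, as amplified from oligo(dT), differ between XY and XX oocytes.

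In the meiotic oocyte the spindle forms near the centre of the cell and must travel to the cortex, so that a small polar body is cut off and the egg keeps its cytoplasm. The track is a mesh of unbranched actin filaments that the formin encoded by Fmn2 nucleates together with Spire1 and Spire2, and vesicles carrying myosin Vb, from Myo5b, keep that mesh dense and moving. At the cortex the Arp2/3 complex, with Actr2, Actr3 and Arpc2 among its subunits, builds branched actin under the control of N-WASP (Wasl) and the small GTPases Cdc42 and Rac1, and this holds the spindle in place. The GV oocyte is the stage before this movement, and maturation draws on its stored transcripts. Those measured here were amplified from oligo(dT), so their amount was not told apart from the length of their poly(A) tails.

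The arrays were of oocyte RNA and were not alike in the 5' control of Actb. All 13 oocyte markers passed the filter, and their summed normalized intensity was 92864 to 100361 in XX and 84441 to 88485 in XY. Of these, Mos was lower, with a log2 change of -0.85 (limma's adjusted p = 0.0272). Granulosa and cumulus markers summed to 1486 to 1814 in XX and 1710 to 1920 in XY over 16 genes, with Amh, Inhba, Gatm and Tnfaip6 below the array median on all 6 arrays. The largest part of that sum was Nr5a2, at 762, 1110 and 979 in XX and 810, 552 and 652 in XY as deposited. Of the 12 tested, 9 had positive and 3 negative changes, with a median log2 change of 0.34, beside 0.07 for all genes. Theca and stroma markers summed to 144 to 190 in XX and 307 to 423 in XY over 7 genes, of which Cyp17a1, Col1a1, Col3a1 and Pdgfra lay below the array median on all arrays. In that sum Dcn alone read 75.1, 90.1 and 20.1 in XX and 320.1, 199 and 135 in XY as deposited. Blood and endothelial markers summed to 171 to 274 in XX and 244 to 361 in XY over 7 genes, with Ptprc, Hba-a1 and Cdh5 below the array median on all arrays. Of the genes in these 3 lists of other cells, Inha (adjusted p = 0.0475) and Cd68 (0.0392) were higher in XY by limma's test, and no gene was lower. Dcn had a log2 change of 1.85 without overlap and missed the threshold narrowly (limma's adjusted p = 0.0500009). Kitl, a granulosa marker, had -0.63 without overlap (0.0715). The 5' control of Actb falls when RNA or its amplified product is shortened, and it cannot tell these apart. As deposited, it was lowest in XX 1 (45.9) and lay at 54.7 to 62.7 in the XY arrays. It was highest in XX 2 (184) and XX 3 (188). The 3' control read 2121 to 3001 in XX and 2297 to 3332 in XY. The part of these markers and of RNA quality or amplification in the results below was not tested. The exceptions were fits that left out 1 array or took in the ratio of the Actb controls.

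Wasl, lower in XY, was the only gene of the 9 that passed limma's test at its brightest probe set. It passed in 8 of 18 alternatives. Its brightest probe set had log2 levels, on the log2(quantile-normalized intensity + 9) scale used throughout, of 12.64, 12.89 and 12.72 in XX 1, XX 2 and XX 3 and of 12.24, 12.10 and 12.17 in XY 1, XY 2 and XY 3. The XX and XY values did not overlap, and the closest pair was XX 1 and XY 1. The log2 change, XY minus XX, was -0.58 ± 0.15 (SE, 95% interval -0.93 to -0.24, limma's adjusted p = 0.0414), which leaves XY at 0.667 of the XX level. As deposited, the same probe set read 5914, 8511 and 8216 in XX and 5072, 3351 and 3722 in XY.

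None of the other 8 genes passed limma's test, and none had an unadjusted p under 0.05, as 4003 of all 12442 genes did. The count for the set was 0 of 9 higher and 1 of 9 lower (11.1%), where 7.86% of all genes were higher and 5.34% lower, 13.2% in either direction. The single call is therefore close to the background share and is no result about the set. XX and XY values did not overlap for 3 of the 9, Fmn2, Arpc2 and Wasl, where this held for 38.8% of all genes. The median change was -0.04 for the 9 genes and 0.07 for all genes.

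The call for Wasl was a narrow one. Leaving out an XX array ended it for XX 2 (adjusted p = 0.116) and for XX 3 (0.0979), and leaving out any XY array ended it too, at 0.102 for XY 1, 0.140 for XY 2 and 0.124 for XY 3. It was also lost with the values as deposited (0.0710), with no filter (0.0854), as the mean of its probe sets (0.0693), with the replicate block (0.110) and with the Actb covariate (0.205), while the change stayed between -1.07 and -0.46. Without XX 1, the array closest to XY in its Actb control, it was -0.64 (adjusted p = 0.0220).

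**Figure D1:**
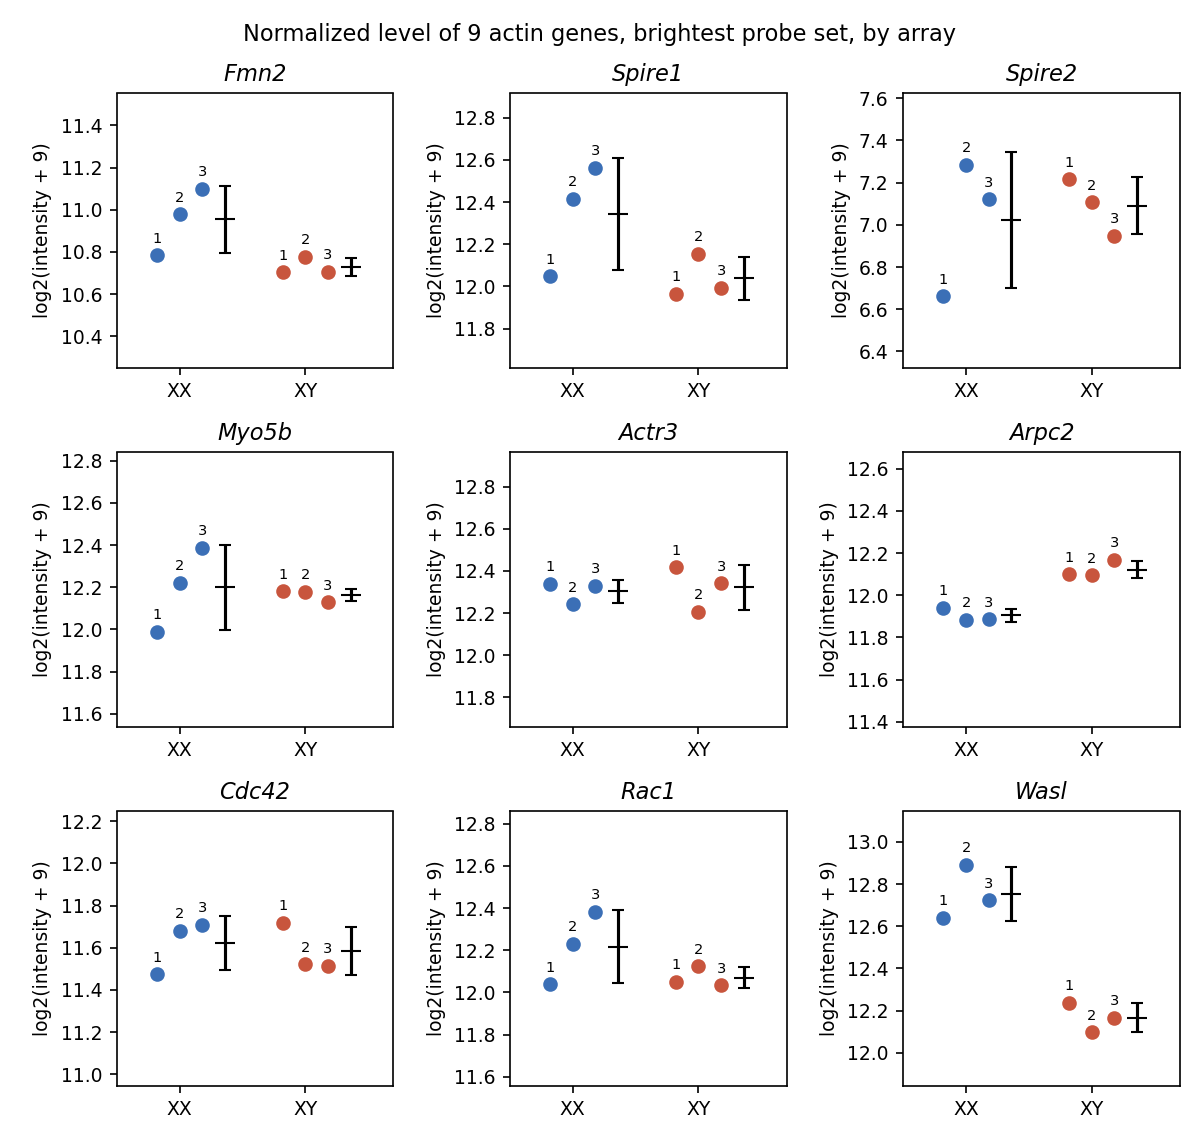
Normalized level of each of the 9 genes by array. Each panel shows 1 gene at its brightest probe set, with log2(quantile-normalized intensity + 9) on the vertical axis, XX arrays in blue and XY arrays in red, each point numbered by its replicate, and the mean ± SD (n = 3) as a black bar. The panels span the same log2 range but start at different levels. Wasl lies at 12.64 to 12.89 in XX and at 12.10 to 12.24 in XY. In the panels of Spire1, Myo5b and Rac1 the XX points reach both above and down to the XY points.

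Among the nucleators of the unbranched mesh, Fmn2, the formin gene whose loss leaves the spindle in the middle of the oocyte, had 10.78, 10.98 and 11.10 in XX and 10.70, 10.78 and 10.71 in XY. All XY values lay under all XX values, by a gap that XX 1 and XY 2 nearly closed. The change was -0.23 ± 0.15 (95% interval -0.57 to 0.12, adjusted p = 0.331). A further Fmn2 probe set, 1450064_at, read 10.68, 10.76 and 10.59 in XX and 10.17, 10.18 and 9.98 in XY. Its change of -0.56 ± 0.18 (adjusted p = 0.161 over all 45037 probe sets) was larger than that of the brightest one. The dim remaining one, 1431725_at, had -0.19 ± 0.23, so that all 3 had negative values and none passed, and it was 0.18 with trimmed mean scaling. The gap between the probe sets was not tested.

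Spire1, which works with the formin in filament nucleation, had 12.05, 12.42 and 12.56 in XX and 11.97, 12.15 and 11.99 in XY. XX 1 lay inside the XY range and the other XX arrays lay above it. The change was -0.30 ± 0.18 (adjusted p = 0.279), and -0.45 without XX 1 (adjusted p = 0.0601). Its next probe set had -0.16 ± 0.24, and the 3 that did not pass the filter, at mean deposited intensities of 11.8 to 22.2 in XX, were not tested as genes. Spire2, its paralog, was dim, with deposited intensities of 76.3, 164 and 159.5 in XX and 151, 111 and 105 in XY. XX 1 was the lowest of the 6 arrays here, and the log2 change was 0.07 ± 0.20 (95% interval -0.40 to 0.54). The sign turned to -0.11 without XX 1 and to -0.060 with the values as deposited and -0.21 with median scaling, and no direction is given for Spire2.

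Myo5b encodes the myosin that carries Rab11-marked vesicles through the mesh, and its 3 kept probe sets spread widely. The brightest read 11.99, 12.22 and 12.39 in XX and 12.18, 12.18 and 12.13 in XY, with the XY values inside the XX range and a change of -0.04 ± 0.16. Probe set 1437698_at had -0.30 ± 0.18. Probe set 1441104_at read 10.08, 10.11 and 10.34 in XX and 9.30, 9.49 and 9.43 in XY, without overlap. Its change of -0.77 ± 0.18 had an adjusted p of 0.0898 over all probe sets and of 0.0293 over the 22997 that passed the filter. The interval of the brightest ran from -0.41 to 0.33.

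The Arp2/3 subunit genes did not pass at their brightest probe sets. Actr3, the gene of an actin-related core subunit of the complex, had 12.34, 12.24 and 12.33 in XX and 12.42, 12.21 and 12.34 in XY. The arrays of the groups were mixed in order, and the change was 0.02 ± 0.14 (95% interval -0.31 to 0.35). The sign turned to -0.32 with the values as deposited and to -0.48 with median scaling, so that no direction is given for Actr3. Probe set 1452051_at had 0.02 ± 0.18, and turned sign under the same scalings. Probe set 1426392_a_at did not overlap, at 11.84, 12.24 and 12.26 in XX and 11.64, 11.38 and 11.12 in XY, with a change of -0.73 ± 0.22 (adjusted p = 0.153 over all probe sets).

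Arpc2 encodes a subunit that ties the branch to the mother filament. It read 11.94, 11.88 and 11.89 in XX and 12.10, 12.10 and 12.17 in XY, tight within each group and higher in all 3 XY arrays. The change of 0.22 ± 0.13 did not pass (adjusted p = 0.296), and its sign depends on the scaling: it was -0.14 with the values as deposited and -0.31 with median scaling. A further Arpc2 probe set had deposited intensities of 1.32 to 6.77 and did not pass the filter.

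The 2 GTPase genes each had probe sets of opposite sign. For Cdc42, which directs the cortical actin cap and oocyte polarity, the brightest of 4, also a probe set of the kind that can match several genes (its suffix is _s_at), read 11.47, 11.68 and 11.71 in XX and 11.72, 11.52 and 11.51 in XY, a change of -0.04 ± 0.15. Probe sets 1415724_a_at and 1449574_a_at had -0.12 ± 0.19 and -0.32 ± 0.22. Probe set 1435807_at read 10.71, 9.80 and 9.65 in XX and 10.84, 10.68 and 10.91 in XY. XX 1 stood with the XY arrays on it, and the change of 0.76 ± 0.30 (adjusted p = 0.243) became 1.08 (adjusted p = 0.0446) without XX 1. The Actb 5' control also set XX 1 with the XY arrays, and a link to this probe set was not tested.

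Rac1, a GTPase that activates the WAVE complex, had 12.04, 12.23 and 12.38 in XX and 12.05, 12.13 and 12.03 in XY at its brightest probe set. These overlapped, with a change of -0.15 ± 0.15. Its second kept probe set, 1451086_s_at, whose suffix marks probes that can match transcripts of more than 1 gene, read 10.05, 9.77 and 9.48 in XX and 10.38, 10.73 and 10.71 in XY. Here every XY value was higher, by 0.84 ± 0.22 (adjusted p = 0.114 over all probe sets and 0.0448 over those that passed the filter). As the mean of both probe sets Rac1 had 0.35, against -0.15 at the brightest, and no direction is given for it. A further probe set, at 1.74 to 37.6 as deposited, did not pass the filter.

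All 4 probe sets of Wasl had negative changes. Probe set 1426776_at read 11.16, 11.46 and 11.50 in XX and 10.80, 11.17 and 10.69 in XY, where XY 2 reached the level of XX 1, with a change of -0.49 ± 0.21 (adjusted p = 0.283). Probe set 1426777_a_at read 10.05, 9.71 and 9.93 in XX and 9.36, 9.10 and 9.02 in XY, without overlap. Its change was -0.73 ± 0.20 (adjusted p = 0.119 over all probe sets and 0.0445 over those that passed the filter). The dim probe set 1432155_at, at 36.8 to 66.5 as deposited, had -0.06 ± 0.22, and it turned sign in 4 of its 16 alternatives, whereas the others of Wasl turned in none of theirs. In the fit over probe sets the brightest one itself had an adjusted p of 0.151 over all and 0.0562 over those that passed the filter.

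Over all 23 kept probe sets, 17 had negative and 6 positive changes. The share of negative changes among all kept probe sets was not counted, so no lean is read from this. The XX and XY values of 9 of the 23 did not overlap, 7 lower and 2 higher in XY. Among all 22997 kept probe sets 36.6% did not overlap, 18.1% lower and 18.5% higher. Probe sets of 1 gene share their RNA and often their target sequence, and are not independent counts. Adjusted over all 45037 probe sets, 0 of the 23 passed limma's test and 7 had an unadjusted p under 0.05, as 6130 of the 22997 kept probe sets did, where 1.37% of all probe sets passed, 0.719% higher and 0.651% lower. Adjusted over the 22997 alone, 3 passed, 1 each of Myo5b and Wasl lower and that of Rac1 higher, where 5.41% were lower and 5.08% higher.

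Probe sets of 1 gene disagreed across the array as a whole. Cdc42, with 4 kept probe sets, had changes spanning 1.08, and Wasl, also with 4, 0.68, where the median span over 440 genes with 4 was 0.83. The spans of Myo5b (0.73), Actr3 (0.76) and Fmn2 (0.38) stood beside a median of 0.64 over 1224 genes with 3. That of Rac1, 0.99, stood beside a median of 0.39 and an upper quartile of 0.67 over 3044 genes with 2, and that of Spire1 was 0.14. Both signs occurred in 3 of the 7 genes with several probe sets, and in 36.6%, 52.7% and 65.7% of all genes with 2, 3 and 4.

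**Figure D2:**
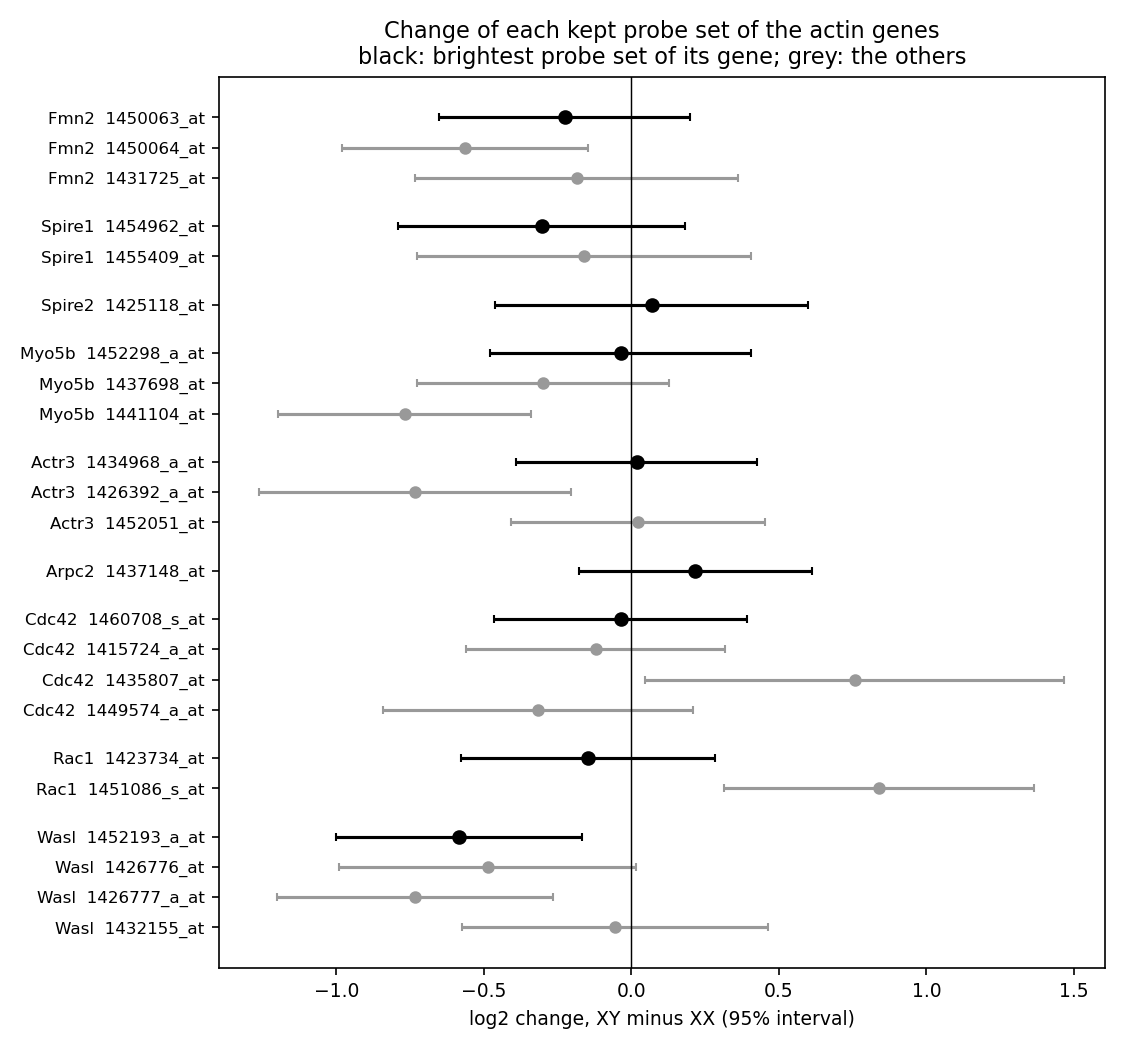
Log2 change, XY minus XX, of the 23 kept probe sets with 95% intervals from the fit over all 45037 probe sets, grouped by gene. Black marks the brightest probe set of a gene and grey the others. The 4 probe sets of Wasl and the 3 of Fmn2 lie on the negative side, whereas those of Rac1 lie at -0.15 and 0.84 and those of Cdc42 run from -0.32 to 0.76.

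The deposited intensities were not on a common level, so the changes of these bright genes move with the scaling between arrays. Of the 9 genes, 8 lay among the 2488 brightest genes by mean level, where 5.27% were lower and 4.66% higher. The median change of all genes was 0.07 after quantile normalization, -0.12 for deposited values, -0.27 for median scaling and 0.18 for trimmed mean scaling. Among the 2488 brightest genes it was 0.04, -0.30, -0.46 and 0.01, and for the 9 genes it was -0.04, -0.41, -0.57 and -0.10.

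Relative to the median of the 2488 brightest genes, the bright genes moved little between scalings. Values as deposited, median scaling and trimmed mean scaling differ by 1 factor per array, so their relative values are nearly equal by construction, and quantile normalization is the only comparison free to differ. Wasl stood at -0.62 after quantile normalization and at -0.60 under each of the other scalings. Fmn2 stood at -0.27 and then at -0.29, and Spire1 at -0.34 and then -0.33. Arpc2 stood above it, at 0.18 and then 0.16. Myo5b stood at -0.08 and then -0.07, and Actr3 at -0.02 in all 4. Cdc42 stood at -0.08 and then -0.11, and Rac1 at -0.19 and then -0.18. These relative values are a description and were not tested, and Spire2, which is dim, was left out of them.

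**Figure D3:**
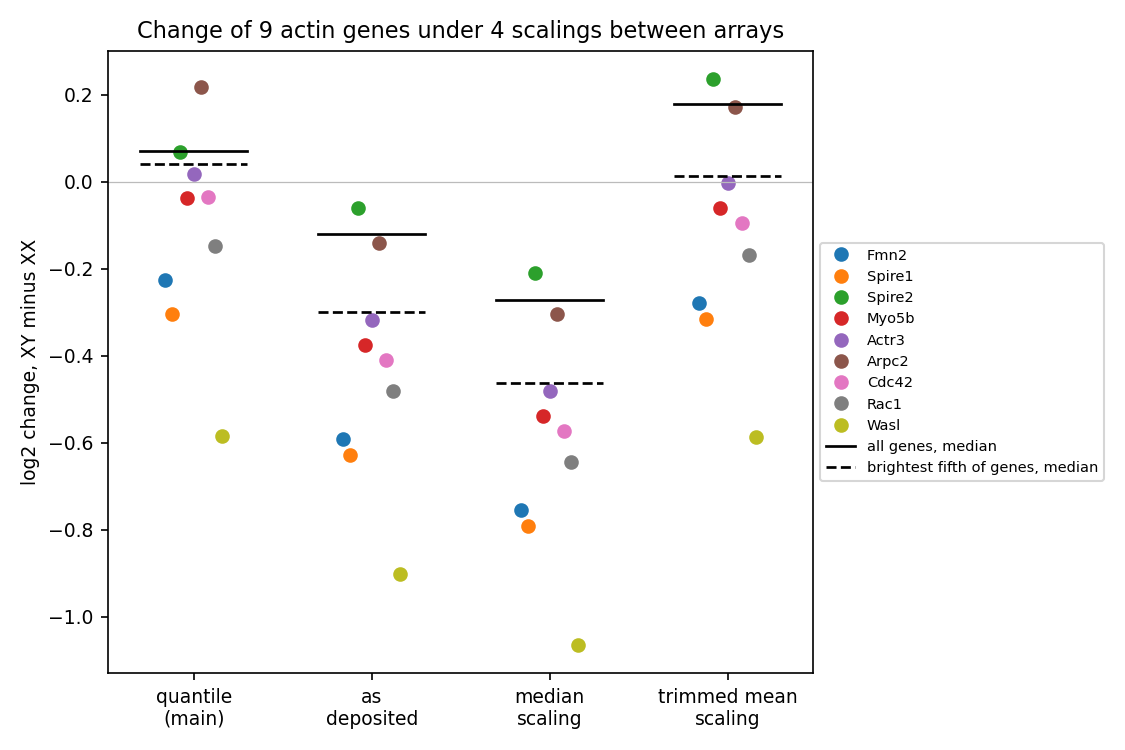
Log2 change, XY minus XX, of each of the 9 genes under 4 scalings between arrays (horizontal axis), 1 colour per gene. Solid black lines give the median change of all genes and dashed black lines that of the 2488 brightest genes. Under the values as deposited and median scaling all 9 points lie below 0, and Wasl is lowest in each, from -1.07 to -0.58.

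A list of 86 other actin pathway genes showed changes on both sides. Of the 70 tested, 7 rose (10.0%) and 5 fell (7.14%), beside 7.86% and 5.34% of all genes, with a median change of 0.07, the same to 2 decimals as that of all genes. The counts depend on the scaling: as deposited 2 were higher and 3 lower, after median scaling 2 and 13, after trimmed mean scaling 9 and 5. Over all genes the counts were 978 higher and 665 lower, and 472 and 529, 482 and 1622, and 1423 and 586 under the same scalings. The part of the 70 that passed grew to 21 without XX 1 and fell to 2 or 3 without any other single array.

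Among regulators of Arp2/3, 0 of 13 rose and 3 fell, where 7.86% of all genes were higher and 5.34% lower, and the median was -0.41. These groups by role were formed with values in view and are too small to be set apart from those shares. Wasf2, whose product binds Arp2/3 as part of the WAVE complex, read 10.95, 11.20 and 10.99 in XX and 10.12, 10.35 and 10.46 in XY, a change of -0.74 ± 0.16 (adjusted p = 0.0285). Its second probe set had -1.77 ± 0.21 (adjusted p = 0.0278 over all probe sets). Abi1 (-0.73, adjusted p = 0.0467) and Cyfip2 (-0.56, adjusted p = 0.0498), genes of further subunits of that complex, fell as well, and were named after their values were seen. The other Abi1 probe sets had 0.02 and -0.54, and the other Cyfip2 probe sets -0.17 and -0.49. The other 5 tested genes of the complex did not pass. Among these Wasf1 was higher without overlap, at 0.56 (limma's adjusted p = 0.0809), and Brk1 and Nckap1 had 0.25 and 0.01. Wasf3 and Abi2 had -0.28 and -0.82. With the values as deposited Wasf2 passed, and Cyfip2 (0.104) and Abi1 (0.0649) did not. Wasf2 was lost with no filter (adjusted p = 0.0618), with the replicate block (0.0700) and with the Actb covariate (0.183). Each of the 3 calls was lost without any single array other than XX 1 (adjusted p from 0.0664 to 0.162).

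Of further Arp2/3 subunits, 1 of 4 rose, beside 7.86% of all genes. Arpc5, a peripheral subunit gene, read 9.37, 9.26 and 8.86 in XX and 9.87, 10.13 and 9.82 in XY. The change of 0.78 ± 0.19 (adjusted p = 0.0399) became 0.44 (0.346) with the values as deposited and 0.28 (0.423) with median scaling, and its call was lost without any single array other than XX 1 (adjusted p from 0.0905 to 0.129). The other 3 did not pass, with changes from -0.30 to 0.41.

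Actin itself and the proteins that bind its monomers had 2 of 9 higher and 1 lower, beside 7.86% and 5.34% of all genes. Actg1, a cytoplasmic actin gene, read 11.39, 11.18 and 11.26 in XX and 12.02, 11.96 and 12.00 in XY, a rise of 0.72 ± 0.14 (adjusted p = 0.0204), or 0.35 (0.486) with the values as deposited and 0.18 (0.631) with median scaling. Its single probe set has the _s_at suffix and may also bind other actin transcripts, which are close in sequence. Actb, the other cytoplasmic actin, had 0.20 ± 0.16 at its brightest probe set, or -0.17 with the values as deposited, and -1.34 ± 0.37 at the other. Profilins hand actin monomers to formins such as that of Fmn2. Pfn2 rose by 0.87 ± 0.20 (adjusted p = 0.0330), with all 3 of its probe sets positive, and had 0.49 (0.276) with the values as deposited and 0.33 (0.342) with median scaling. Pfn1 fell by 1.45 ± 0.36 (adjusted p = 0.0414) from a low mean level of 6.62 in XX to 5.17 in XY. All 3 calls were lost without any single array other than XX 1 (adjusted p from 0.0567 to 0.130).

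Vav3, which encodes a guanine nucleotide exchange factor, had the largest change of the list after quantile normalization. It read 7.57, 7.11 and 7.25 in XX and 9.23, 8.91 and 9.64 in XY, a rise of 1.95 ± 0.23 (adjusted p = 0.00556), and its other probe set had 1.71 ± 0.24. It passed in 17 of 18 alternatives, the exception being the Actb covariate (adjusted p = 0.0579). Ect2, a gene needed for cytokinesis, read 10.87, 11.44 and 11.26 in XX and 10.32, 10.34 and 10.32 in XY, a fall with a change of -0.86 ± 0.18 (adjusted p = 0.0253). Rhob rose by 0.75 ± 0.17 (adjusted p = 0.0331), or had 0.73 (0.110) with the values as deposited and 0.58 (0.111) with median scaling, and Rhoa had 0.24 ± 0.15, or -0.059 with the values as deposited. The Rhob and Ect2 calls were lost without any single array other than XX 1 (adjusted p from 0.0764 to 0.113).

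Among genes of the cortex and polarity, 2 of 8 passed as higher, beside 7.86% of all genes, and 1 of them, Pard3, differed by probe set. Pard3, a scaffold of the polarity complex, had a change of 1.60 ± 0.20 at its brightest probe set (adjusted p = 0.00623). Its others had 0.66, -0.44 and -1.18, and their mean with the brightest was 0.16 (adjusted p = 0.545), so that no direction is given for the gene. Ezr, which links actin to the plasma membrane, rose by 0.94 ± 0.23 (adjusted p = 0.0408), with 0.54 at its other probe set, 0.62 (0.225) with the values as deposited and 0.46 (0.232) with median scaling. The Ezr call was lost without any single array other than XY 1, from an adjusted p of 0.0609 to 0.122. Ran, whose GTP form marks the chromatin to the cortex, had 0.63 ± 0.17 (adjusted p = 0.0532), and all 5 of its probe sets were positive. Limma's test called 0 of 7 capping and tropomyosin genes, 0 of 4 other formins and 0 of 11 myosin and Rab genes. Of all genes 13.2% were called, and these groups are too small to be set apart from that share. An unadjusted p under 0.05 by limma was held by 2, 0 and 4 of them, as by 4003 of all 12442 genes.

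**Figure D4:**
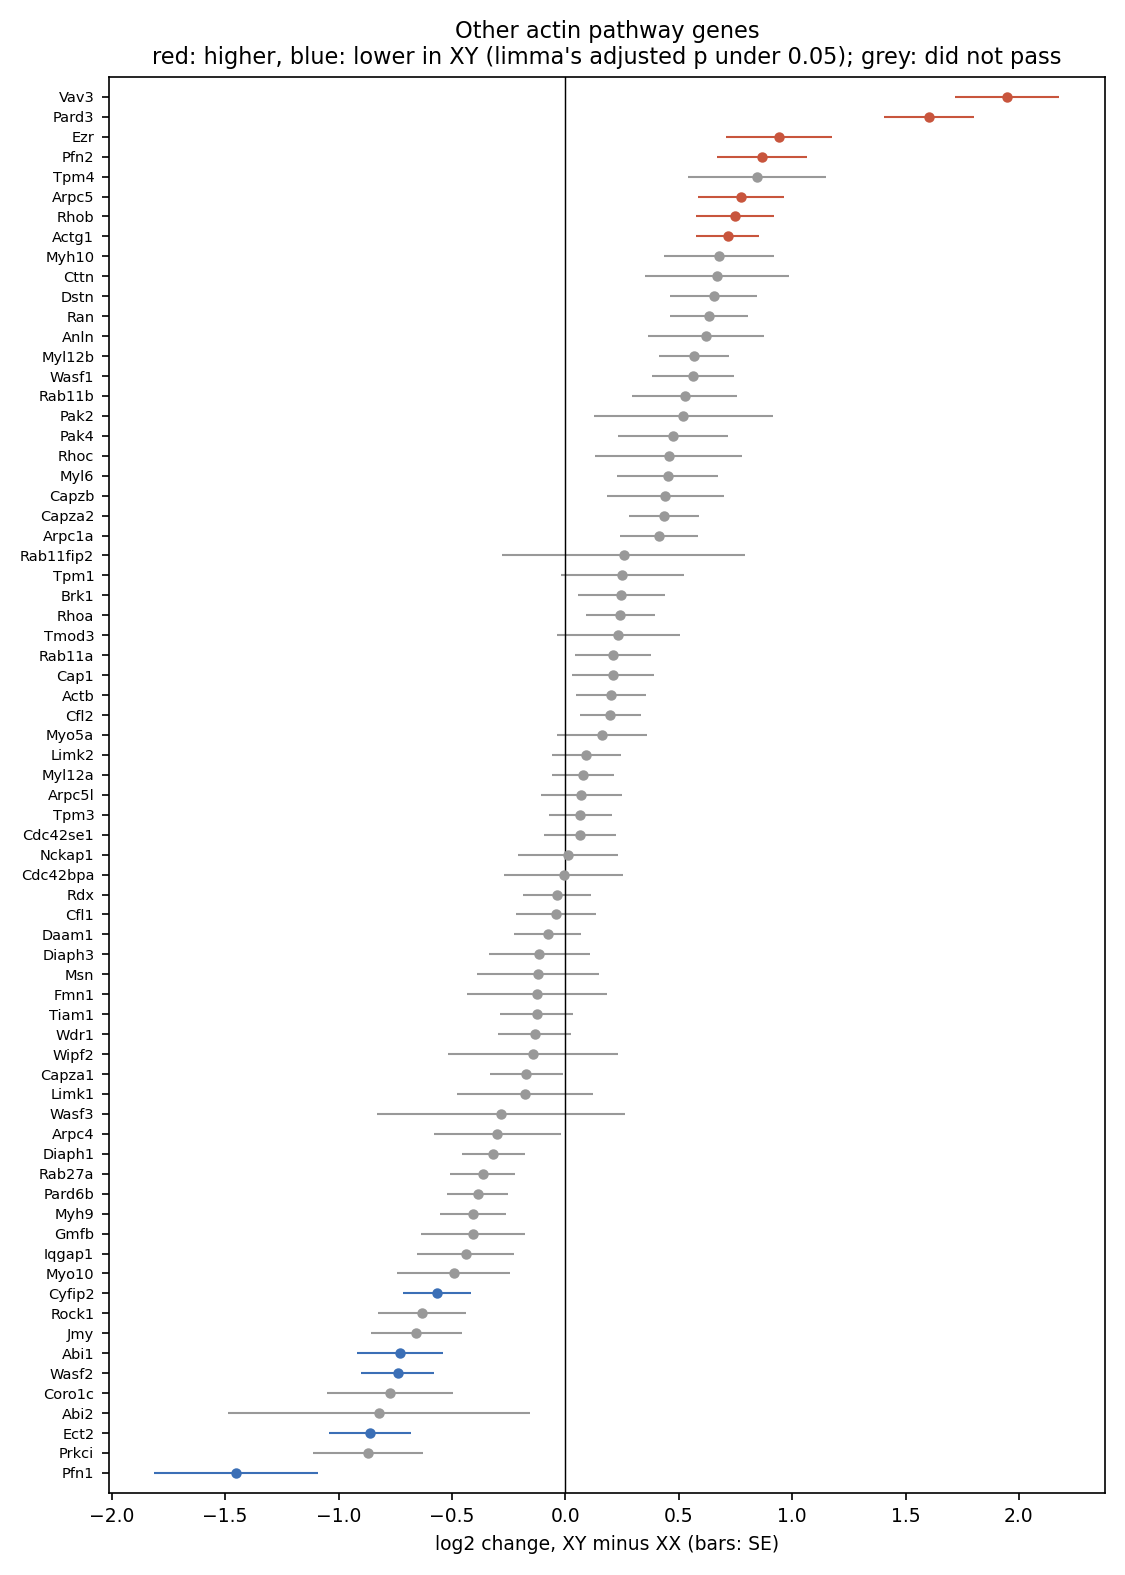
Log2 change, XY minus XX, with its SE, of the 70 tested genes of the other actin pathway list, ordered by change. Red marks the 7 that passed as higher, blue the 5 that passed as lower and grey those that did not pass limma's adjusted p of 0.05. Vav3 at 1.95 and Pfn1 at -1.45 are the ends of the range.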

How the data were processed

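RNA of 10 GV oocytes made up each of the 6 samples, 3 XX and 3 XY, which the labels call biological replicates. It was amplified in 2 cycles from oligo(dT) and hybridised to 1 array each. The authors deposited 1 linear intensity per probe set, made with MAS5 per the submitters' processing notes (version and scaling target: not given in the sources used here). Leaving out 64 control probe sets left 45037. Of these, 34945 had 1 symbol in the platform annotation, 932 had several and 9160 had none, and 34741 were matched by gene ID to the GRCm38.p6 RefSeq table.

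Intensities were quantile-normalized between arrays and used as log2(value + 9), a scale on which changes of low values are understated. Kept were probe sets at or above the array median on at least 3 of the 6 arrays (22997, of which 20268 had 1 symbol), and the brightest kept probe set stood for each of 12442 genes, 4937 of which had several. XY and XX were compared with limma 3.58.1 in R 4.3.3 (lmFit and eBayes, Benjamini-Hochberg adjustment over all genes, threshold 0.05). Another fit over all 45037 probe sets gave the values of single probe sets. The script was tested on simulated data. The number of arrays limits the precision, and an exact permutation test of 3 against 3 cannot go below 0.1.

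Named were all probe sets of the members, and of the other actin pathway genes the 10 with the smallest p, with Actb, Actg1, Rhoa and Ran whatever their values. Abi1, Cyfip2 and the genes of the WAVE complex that did not pass lie outside this rule. Marker genes were named where they passed or lay under the array median on all arrays. Dcn, Nr5a2 and Kitl were named after their values were seen. The count of 1 group of the list is not reported here. Members and lists were chosen with earlier results of these data known. Alternatives were other scalings between arrays, pseudocounts of 1 and 29, no filter or the 70th percentile, the mean of a gene's probe sets, trended variance, array weights, the replicate number as a block, the Actb 3' to 5' ratio as a covariate, and each array left out in turn. Adjustment over the kept probe sets alone was added after seeing the data.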

Additional observations from a re-analysis of the deposited data

How the results depend on the processing

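Of the changes between XY and XX over all genes, 1643 passed in the fit reported, 1001 with the values as deposited, 913 with no filter, 3264 with array weights, 679 with the replicate block and 126 with the Actb covariate, and 487 to 3248 when single arrays were left out (3248 without XX 1). The labels do not say whether the replicate numbers pair the samples. Deviations from the group means had correlations of -0.102, 0.00104 and -0.0433 between same-numbered XX and XY arrays. With 3 arrays per group these values cannot decide it. The count of spindle actin genes was 0 with the values as deposited, no filter, the mean of probe sets, the replicate block and the Actb covariate (1, 1, 3, 1 and 1 had an unadjusted p under 0.05 by limma), and 0 to 1 without single arrays. For the other actin pathway genes it was 5 as deposited, 3 with no filter, 23 with array weights, 3 with the replicate block, 0 with the Actb covariate (16 of 70 at an unadjusted p under 0.05 by limma, as 2639 of all 12442 genes) and 2 to 21 without single arrays. Of the spindle gene probe sets, 3 passed with the pseudocount of 29, 6 with trended variance, 3 when adjusted over kept probe sets alone (chosen after seeing the data) and 0 to 1 without single arrays. Signs turned as follows, and the cause was not tested. With the values as deposited Spire2 had -0.060, Actr3 -0.32, Arpc2 -0.14, Actb -0.17, Rhoa -0.059, Actr3 probe set 1452051_at -0.35 and Wasl 1432155_at 0.044. With median scaling Spire2 had -0.21, Actr3 -0.48, Arpc2 -0.31, Actb -0.33, Rhoa -0.22 and 1452051_at -0.51. With trimmed mean scaling Actr3 had -0.0040, 1452051_at -0.033, Fmn2 1431725_at 0.18 and Wasl 1432155_at 0.30. As the mean of probe sets Actr3 had -0.23, Cdc42 0.071, Rac1 0.35 and Actb -0.57. With array weights Spire2 had -0.059. With the Actb covariate Spire1 had 0.0047, Myo5b 0.15, Actr3 -0.066, Cdc42 0.056, Rac1 0.029, Spire1 1455409_at 0.22 and Cdc42 1415724_a_at 0.055. Without single arrays Spire2 ran from -0.11 to 0.20, Myo5b from -0.14 to 0.058, Actr3 from -0.030 to 0.075, Cdc42 from -0.11 to 0.0072, Spire1 1455409_at from -0.33 to 0.015, 1452051_at from -0.032 to 0.098 and Wasl 1432155_at from -0.25 to 0.054.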
